A study of Mus musculus with 8 samples.

Results

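Interferon-stimulated genes were followed in mouse mammary tumor cells sorted on a reporter of the Notch ligand Dll1. The 44 genes were selected by name from the known interferon response, with earlier results of these data in view, and kept where at least 10 estimated counts were found in at least 2 libraries. All 44 met this rule, out of 53697 genes in the table and 18322 genes that entered the tests, and all 44 had at least 10 counts in each of the 8 libraries. The gene closest to the limit was Ifitm1, whose lowest count was 15. Because the genes were chosen with these results known, their counts and medians are a description of this set and not independent evidence of a direction.

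The tumors arose in MMTV-PyMT mice on a C57BL/6 background, in which the mouse mammary tumor virus promoter drives the polyoma middle T oncogene in mammary epithelium. Mice 1 and 2 were PyMT-Dll1GFP animals, with a GFP-IRES-Cre-ERT2 cassette knocked in at Dll1, and mice 3 and 4 were PyMT-Dll1mCh animals, with mCherry expressed from a bacterial artificial chromosome. Cells carrying CD45, CD31 or Ter119 were removed, and each of the 4 mice gave 1 library of reporter-positive cells (Dll1+) and 1 library of reporter-negative cells (Dll1-), so there were 2 libraries in each of 4 groups. The labels used here give no treatment and no age, and fibroblasts carry none of the 3 surface proteins used for depletion.

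Interferons are secreted proteins that act through surface receptors, the JAK kinases and the STAT factors. Type I and type III interferons bring STAT2 and IRF9 to the interferon-stimulated response element (ISRE), and interferon gamma acts through the gamma-activated site (GAS). The induced genes encode RNA sensors, proteins that block viral entry and replication, ISG15 and its enzymes, and feedback factors. In epithelial cells and in tumors many of these genes are also expressed without infection.

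Library totals ran from 27301396 to 123907626 estimated counts. Levels are given as TMM-normalized CPM (counts scaled to the library total), where TMM is a scaling factor for library composition, and a change is called where edgeR's quasi-likelihood test gave an adjusted p under 0.05 over all tested genes. Dll1 itself stood at 7.61 and 13.7 CPM in the Dll1- libraries of mice 1 and 2 against 87.5 and 138 CPM in their Dll1+ libraries. In mice 3 and 4 it stood at 34.7 and 50.3 CPM against 203 and 250 CPM. The sort was therefore visible in every mouse, and the Dll1- cells of the mCherry line held more Dll1 RNA than those of the GFP line.

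Epithelial markers (Epcam, Cdh1, Krt8, Krt18, Krt19, Krt14 and Krt5) were found in all 8 libraries. Their sum was 5507 and 5105 CPM in Dll1- against 6115 and 5844 CPM in Dll1+ libraries of the GFP line. In the mCherry line it was 4799 and 6301 CPM against 6097 and 8843 CPM, so it was higher in Dll1+ cells of each mouse. Epcam, Krt8 and Krt18 were higher in the Dll1+ library of each mouse, while Cdh1 and Krt19 were lower in mice 1, 2 and 3. The basal keratins Krt5 and Krt14 were higher in the Dll1+ library of each mouse, with log2 differences in mice 1 to 4 of 2.40, 2.17, 3.54 and 2.83 for Krt5 and of 1.07, 0.71, 2.75 and 1.68 for Krt14, and the part of basal cells in the results on Dll1 status was not tested. Of 8 fibroblast and pericyte markers, all were found in each library, and their summed level was 1094 and 1236 CPM in Dll1- against 1005 and 1152 CPM in Dll1+ libraries of the GFP line. In the mCherry line the same sum was 7825 and 21876 CPM in Dll1- against 3046 and 3297 CPM in Dll1+ libraries. The 12 immune markers analysed here summed to 109 and 82.9 CPM against 111 and 96.0 CPM in the GFP line, and to 543 and 555 CPM against 242 and 247 CPM in the mCherry line. Nkg7, a marker of cytotoxic lymphocytes, was at 0 in 1 Dll1- and 1 Dll1+ library of the GFP line, and each of the other 11 immune markers had counts in all libraries. The 6 endothelial markers summed to 49.8 to 53.1 CPM in the GFP line, and to 177 and 403 CPM in Dll1- against 101 and 99.2 CPM in Dll1+ libraries of the mCherry line. The 5 red cell genes, hemoglobins and Alas2, summed to 6.03 to 14.9 CPM in the GFP line, and to 180 and 87.4 CPM against 68.1 and 34.8 CPM in the mCherry line. The sums of stromal and immune markers were thus about level between the cells of a GFP mouse and higher in the Dll1- cells of both mCherry mice. In such bulk libraries fewer cells of a type and less RNA per cell cannot be told apart.

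**Figure D1:**
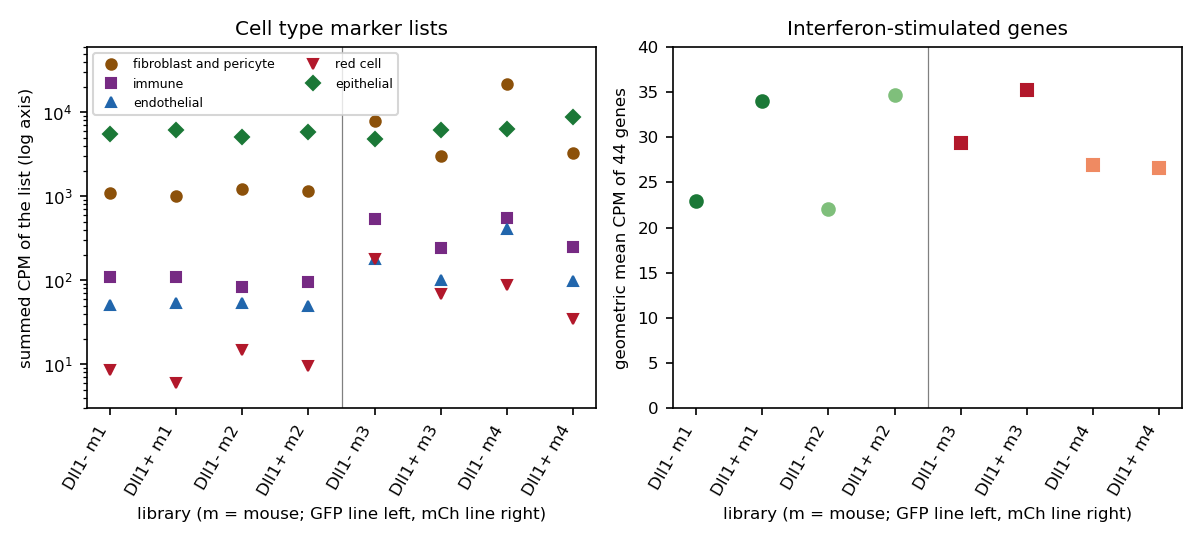
Left, summed CPM of 5 marker lists in each library on a log axis. Right, geometric mean CPM of the 44 interferon-stimulated genes, which was 22.9 and 22.1 in the Dll1- and 34.0 and 34.7 in the Dll1+ libraries of the GFP line, 29.4 and 35.2 in mouse 3, and 26.9 and 26.6 in mouse 4.

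The promoters of these genes carry the response elements in their sequence. The ISRE core was searched as GAAA, any 2 bases and GAAA, and the GAS core as TTCNNNGAA, on both strands, in RefSeq windows from 250 bases before to 50 bases after each annotated start (GRCm38.p6). A window was found for 34 of the 44 genes, and 16 of these (47.06%) held the ISRE core, against 3.993% of all 27025 genes with a window. The GAS core was found in 9 of 34 (26.47%), against 9.554% of all genes. A gene was counted once however many cores its windows held, and a match is a description of letters, not of a bound site. Among the 21 genes that rose in Dll1+ cells of the GFP line, described further on, the stretch of 60 bases around the ISRE core is shown for 7 whose stretch lies before every annotated start of the gene, to let the sequence be read beside the values. Irf1 was added after its values were seen, for its GAS core. Each stretch reads 5′ to 3′ on the gene's strand, and capitals mark the core, or overlapping cores as 1 run (on the other strand the ISRE core reads TTTC, any 2 bases and TTTC).
Isg15 promoter, chr4:156200856-156200915, minus strand: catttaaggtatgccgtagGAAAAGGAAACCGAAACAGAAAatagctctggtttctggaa
Ifit1 promoter, chr19:34640769-34640828, plus strand: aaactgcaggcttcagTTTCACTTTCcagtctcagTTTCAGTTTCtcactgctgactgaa
Ifit3 promoter, chr19:34583365-34583424, plus strand: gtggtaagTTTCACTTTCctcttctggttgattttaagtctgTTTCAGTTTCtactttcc
Rsad2 promoter, chr12:26456538-26456597, minus strand: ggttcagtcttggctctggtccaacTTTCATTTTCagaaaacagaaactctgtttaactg
Oas1a promoter, chr5:120907526-120907585, minus strand: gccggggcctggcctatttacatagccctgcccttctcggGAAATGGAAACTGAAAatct
Oas3 promoter, chr5:120777700-120777759, minus strand: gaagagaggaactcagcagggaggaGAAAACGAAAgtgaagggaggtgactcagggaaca
Bst2 promoter, chr8:71537565-71537624, minus strand: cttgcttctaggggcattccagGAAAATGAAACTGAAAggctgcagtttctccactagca
Irf1 promoter, chr11:53769898-53769957, plus strand: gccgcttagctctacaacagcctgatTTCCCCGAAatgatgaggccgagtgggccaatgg

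Ifit1 and Ifit3, neighbours on chromosome 19, each held 2 separate cores within their stretch. Isg15, Oas1a and Bst2 held overlapping copies, between 97 and 38 bases before it for the Isg15 stretch and between 60 and 1 base before it for the Oas1a stretch. In the GFP line 10 of the 16 genes with the ISRE core rose, as did 7 of the 18 genes without it and 4 of the 10 genes for which no window was analysed here (Rtp4, Usp18, Oas2, Mx1, Parp9, Parp14, Zbp1, Dhx58, Mx2 and Ifi27). Of all tested genes 4.29% rose in the GFP line. The median log2 fold changes of these classes were 0.61, 0.50 and 0.59, beside -0.01 for all tested genes. In the mCherry line the class medians were 0.13, 0.22 and 0.15, beside 0.02, so the genes without the core had the larger median. A difference between the classes was not tested.

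Over the 4 mice, 10 of the 44 genes rose in Dll1+ cells and none fell. Of all tested genes 6.98% rose and 7.04% fell, so the share of the set that rose was 22.7% against 6.98%. The median log2 fold change was 0.36 for the set and -0.0007 for all tested genes, and 40 of the 44 estimates were above 0. The genes that rose were Irf7, the RNA sensors Ifih1, Dhx58 and Ddx58, the effectors Ifit1, Oasl1, Mx1 and Rsad2, the ubiquitin-like modifier Isg15, and Ifi44. Without mouse 1 or without mouse 2 there were 3 calls, without mouse 3 there were 2, and without mouse 4 there were 22. All tested genes gave calls at 2.25%, 4.16%, 2.28% and 13.1% in the same settings. Ifit1 and Ifi44 passed whichever mouse was left out.

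Within each mouse the set moved to a different extent. The Dll1+ library was the higher one for 42 genes of mouse 1, for 43 genes of mouse 2, for 38 of mouse 3 and for 21 of mouse 4. The median log2 differences of the set were 0.59, 0.61, 0.33 and -0.01 in that order, beside medians of all tested genes between -0.02 and 0.04. Higher in 4 of 4 mice were 20 genes (45.5%), against 21.4% of tested genes, and none was lower in 4 of 4. Mouse 4 thus stood apart from the others at the level of the set, while Irf7, Ifi44, Ifit1, Isg15 and the sensors other than Trim25 were higher in its Dll1+ library too.

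**Figure D2:**
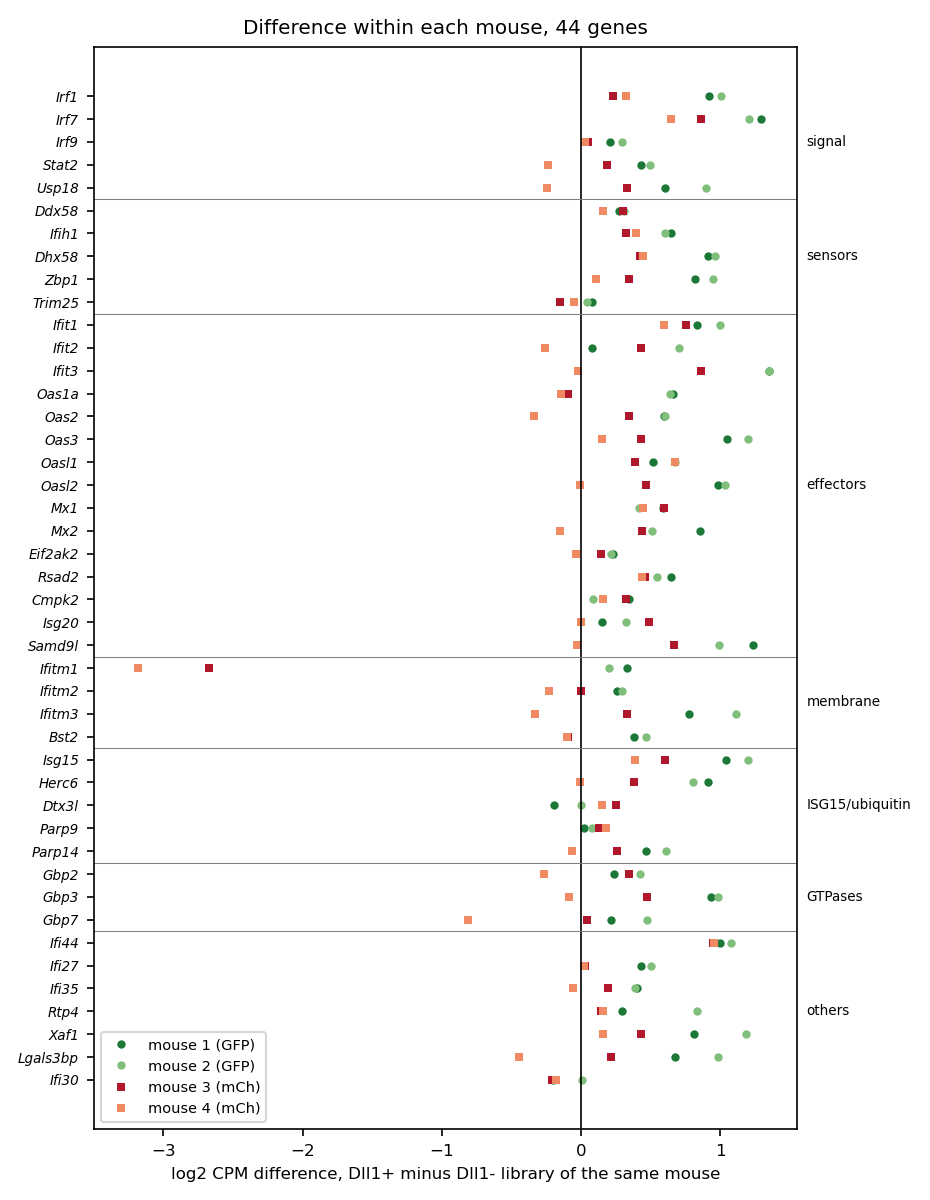
Log2 CPM difference between the Dll1+ and the Dll1- library of each mouse for the 44 genes, ordered by role. Mice 1 and 2 (circles, GFP line) lie mostly to the right of 0, mouse 4 (light squares, mCherry line) scatters around 0, and Ifitm1 stands at -2.67 and -3.18 in mice 3 and 4.

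In the GFP line 21 of the 44 genes rose in Dll1+ cells and none fell, against 4.29% of tested genes that rose and 4.84% that fell. The median log2 fold change of the set was 0.60, beside -0.01 for all tested genes. The rise spread over every role, with 2 of 5 signal and feedback factors, 3 of 5 sensors, 7 of 15 effectors, 2 of 4 membrane proteins, 3 of 5 of the ISG15, ubiquitin and ADP-ribose enzymes, 1 of 3 guanylate-binding proteins and 3 of the 7 others. The fibroblast and immune sums given above differed little between the cells of these mice, but single immune markers did not stay level. Of 10 immune markers with a difference in each mouse, 4 (Ptprc, Cd68, Lyz2 and Fcgr1) were higher in the Dll1+ library of both GFP mice, and Cd68, a marker of macrophages, by 0.54 and 0.62 on the log2 scale. The part of immune cells was not tested. With mouse 1 or mouse 2 left out no gene of the set passed in edgeR, with 28 and 23 genes at an unadjusted p under 0.05 beside 17.1% and 16.8% of all genes. In those fits 1 GFP mouse remained, and the whole table lost nearly all its calls too. With mouse 3 or mouse 4 left out there were 29 calls, beside 13.3% and 12.6% of all tested genes.

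In the mCherry line 7 of the 44 genes rose and 1 fell, against 5.51% of tested genes that rose and 6.25% that fell. The median log2 fold change was 0.17, beside 0.02 for all tested genes. The 7 genes (Irf7, Ifi44, Ifit1, Dhx58, Isg15, Ifih1 and Rsad2) were all among the 21 of the GFP line, making 100% of the mCherry and 33.3% of the GFP calls. The same overlap was not computed over all tested genes, so these shares have no background beside them. With mouse 1 or mouse 2 left out there were 4 calls each, beside 5.57% and 4.84% of all tested genes. Dhx58, Isg15, Ifih1 and Rsad2 did not pass in either of those fits. Rsad2 kept its mCherry call in only 1 of 7 other settings. Without mouse 3 or mouse 4, where 1 mCherry mouse remained, the median of the set was -0.03 and 0.30. Fitted on the 4 mCherry libraries alone, neither the set nor the whole table gave a call.

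The difference between the lines in the Dll1+ effect was tested directly. Reporter allele, animals and any difference in handling cannot be told apart in this comparison. Dll1 itself rose by 3.42 on the log2 scale in the GFP line and by 2.43 in the mCherry line. The stromal and immune marker sums were highest in the Dll1- libraries of the mCherry line. The part of either in the difference was not tested. None of the 44 genes passed in edgeR, against 0.071% of tested genes, while 24 of the 44 had an unadjusted p under 0.05, beside 13.2% of all tested genes. DESeq2 called 8, beside 2.95% of all genes, each with a log2 fold change lower in the mCherry than in the GFP line. The median difference of the log2 fold changes, mCherry minus GFP, was -0.46 for the set and 0.05 for all tested genes, and 5 of 44 estimates were above 0. The lowest adjusted p values were those of Ifitm1 (-3.24, SE 0.38, adjusted p = 0.0538 in edgeR), Oas1a (-0.77, SE 0.12, adjusted p = 0.0881) and Irf1 (-0.69, SE 0.12, adjusted p = 0.105). The count of 0 depended on the settings within edgeR too, which called 16 genes with no filter on low counts (3.28% of all genes), 1 with at least 10 counts asked of every library (0.283%) and 11 without mouse 3 (4.04%), each lower in the mCherry line.

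**Figure D3:**
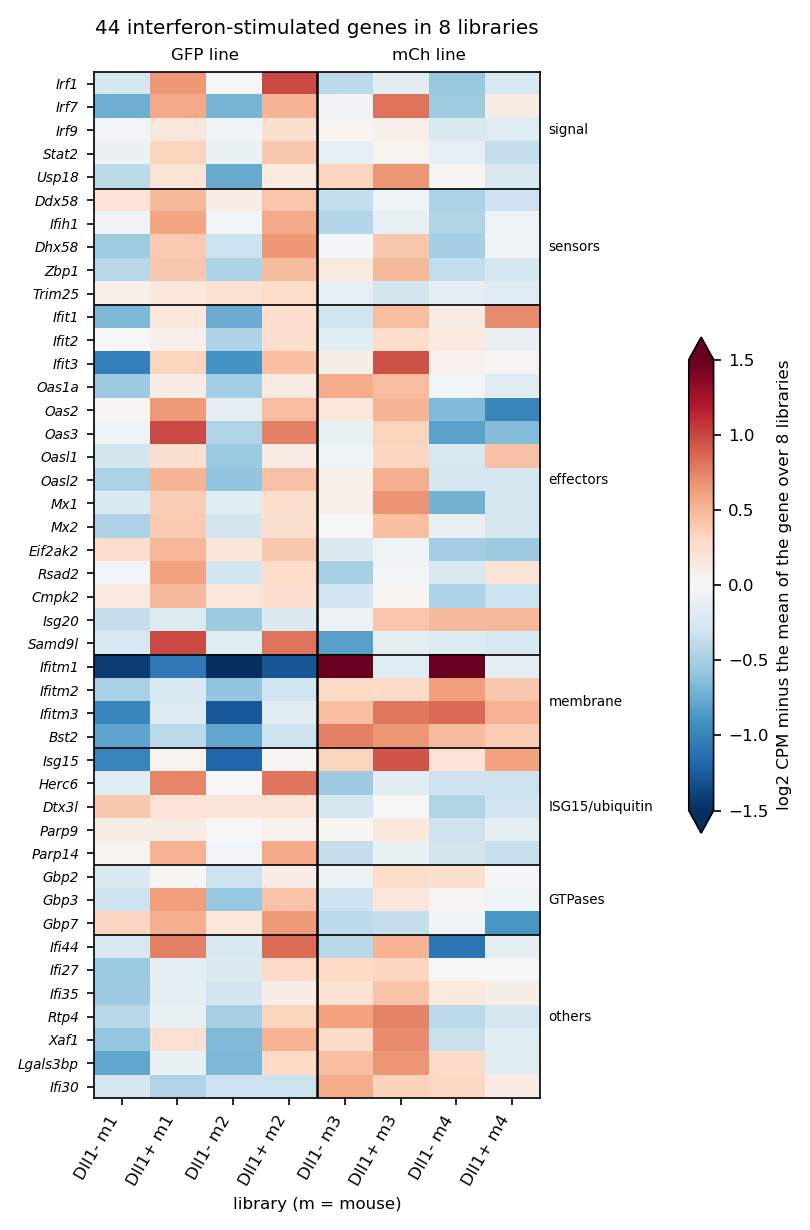
Log2 CPM of the 44 genes in 8 libraries, minus the mean of each gene, ordered by role, with colors capped at 1.5 in either direction (Ifitm1 exceeds the cap). Above their mean are 34, 38 and 32 of 44 genes in the Dll1+ libraries of mice 1, 2 and 3 and 13 in that of mouse 4, and Ifitm2, Ifitm3 and Bst2 are red in all 4 mCherry libraries, Ifitm1 in the Dll1- ones alone.

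Among the signal factors Irf7, the regulator that amplifies type I interferon production, had the widest change. It measured 54.3 and 55.7 CPM in Dll1- cells and 133 and 128 CPM in Dll1+ cells of the GFP line, and 87.1 and 62.2 CPM against 158 and 97.4 CPM in the mCherry line. Dll1+ cells were higher in each mouse, with no overlap within a line. Irf7 rose by 1.0 on the log2 scale over 4 mice (SE 0.12, edgeR adjusted p = 0.00932), by 1.25 in the GFP line (SE 0.09, adjusted p = 0.0027) and by 0.76 in the mCherry line (SE 0.08, adjusted p = 0.00915). Irf1, a factor induced by interferon gamma, measured 209 and 249 CPM in Dll1- against 394 and 498 CPM in Dll1+ cells of the GFP line, and 190 and 169 CPM against 222 and 211 CPM in the mCherry line. It rose in the GFP line (0.96, SE 0.09, edgeR adjusted p = 0.00389) but did not pass over 4 mice (0.62, SE 0.16, adjusted p = 0.0543).

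The factors that bind the ISRE followed. Irf9, whose gene overlaps Rnf31 on the same strand, measured 61.8 and 61.1 CPM in Dll1- against 71.4 and 75.1 CPM in Dll1+ cells of the GFP line and 64.8 and 54.2 CPM against 67.0 and 55.4 CPM in the mCherry line. Stat2 measured 44.7 and 44.6 CPM against 60.2 and 63.0 CPM in the GFP line, and 43.7 and 43.9 CPM against 49.7 and 37.3 CPM in the mCherry line. For Usp18, which removes ISG15 and damps the type I receptor, the values were 7.10 and 5.55 CPM against 10.8 and 10.4 CPM, then 11.7 and 9.48 CPM against 14.8 and 8.01 CPM. All 3 were higher in Dll1+ cells of both GFP mice, none passed in a Dll1 comparison, and for Stat2 and Usp18 mouse 4 went the other way.

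The sensors of cytosolic RNA were the role with the largest share called over 4 mice, 3 of 5. Ifih1, which encodes MDA5, measured 45.6 and 46.2 CPM in Dll1- against 71.4 and 70.1 CPM in Dll1+ cells of the GFP line and 34.9 and 34.5 CPM against 43.6 and 45.4 CPM in the mCherry line. Ddx58, which encodes RIG-I, measured 81.3 and 75.4 CPM against 98.4 and 93.4 CPM, and 54.5 and 50.6 CPM against 67.2 and 56.4 CPM. Dhx58, which encodes the regulator LGP2, measured 17.9 and 20.7 CPM against 33.8 and 40.5 CPM, and 25.4 and 18.2 CPM against 34.1 and 24.8 CPM. All 3 were higher in the Dll1+ library of each mouse. Their log2 fold changes over 4 mice in edgeR were 0.49 for Ifih1 (SE 0.07, adjusted p = 0.0148), 0.26 for Ddx58 (SE 0.05, adjusted p = 0.0304) and 0.69 for Dhx58 (SE 0.12, adjusted p = 0.02). Zbp1, a sensor of Z-form nucleic acid, rose in the GFP line (0.88, SE 0.10, edgeR adjusted p = 0.00631), from 26.1 and 25.2 CPM to 46.1 and 48.6 CPM. Trim25, a ubiquitin ligase that acts on RIG-I, ranged from 66.6 to 97.1 CPM and passed in no Dll1 comparison.

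Of the effectors Ifit1, which binds foreign RNA ends, measured 11.1 and 10.5 CPM in Dll1- against 19.8 and 21.1 CPM in Dll1+ cells of the GFP line and 14.4 and 19.2 CPM against 24.4 and 29.0 CPM in the mCherry line. It rose by 0.79 over 4 mice (SE 0.09, edgeR adjusted p = 0.0074), and its groups did not overlap within a line. Ifit3, its partner, measured 6.62 and 7.21 CPM against 16.9 and 18.4 CPM in the GFP line, where it rose by 1.36 (SE 0.23, edgeR adjusted p = 0.0258). In the mCherry line it stood at 14.3 and 14.0 CPM against 26.0 and 13.8 CPM, so mouse 3 was higher and mouse 4 was level. Of the sequence of Ifit3 61.81% of stretches of 31 bases also lie in another gene, most in Ifit3b, so its reads may be split between them.

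Rsad2, the antiviral enzyme viperin, measured 14.1 and 12 CPM against 22.1 and 17.6 CPM in the GFP line and 10.2 and 12.4 CPM against 14.1 and 16.8 CPM in the mCherry line, and rose by 0.52 over 4 mice (SE 0.08, edgeR adjusted p = 0.0141). Cmpk2, a nucleotide kinase whose start lies 12752 bases from that of Rsad2 on the other strand, passed in no Dll1 comparison, with 10.6 to 20.7 CPM. Mx1, a dynamin-like antiviral GTPase, measured 5.49 and 5.79 CPM against 8.30 and 7.74 CPM in the GFP line and 6.77 and 3.93 CPM against 10.3 and 5.36 CPM in the mCherry line. It rose by 0.52 over 4 mice (SE 0.11, edgeR adjusted p = 0.0343), as did Oasl1, an oligoadenylate synthetase-like protein, by 0.56 (SE 0.10, adjusted p = 0.0208). Neither passed within a line.

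Of the oligoadenylate synthetases, whose product activates RNase L, Oas1a and Oas3 rose in the GFP line, and none passed in the difference between lines. Oas1a measured 18.5 and 18.9 CPM in Dll1- against 29.2 and 29.5 CPM in Dll1+ cells of the GFP line, where it rose by 0.65 (SE 0.09, edgeR adjusted p = 0.0112). In the mCherry line it measured 39.7 and 26.3 CPM against 37.2 and 23.8 CPM, slightly lower in both mice. Of its stretches of 31 bases 68.84% lie in another gene as well, most in Oas1g, so its level is uncertain. Oas2 measured 29.8 and 26.2 CPM against 45.0 and 39.9 CPM, and 32.4 and 18.4 CPM against 41.2 and 14.6 CPM, and did not pass. Oas3 (1.14, SE 0.22, edgeR adjusted p = 0.0306), Oasl2 (1.01, SE 0.13, adjusted p = 0.00855) and Samd9l, a restriction factor (1.11, SE 0.18, adjusted p = 0.0233), also rose in the GFP line. Ifit2, Mx2, Eif2ak2, which encodes the kinase PKR, and the exonuclease Isg20 passed in no Dll1 comparison.

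**Figure D4:**
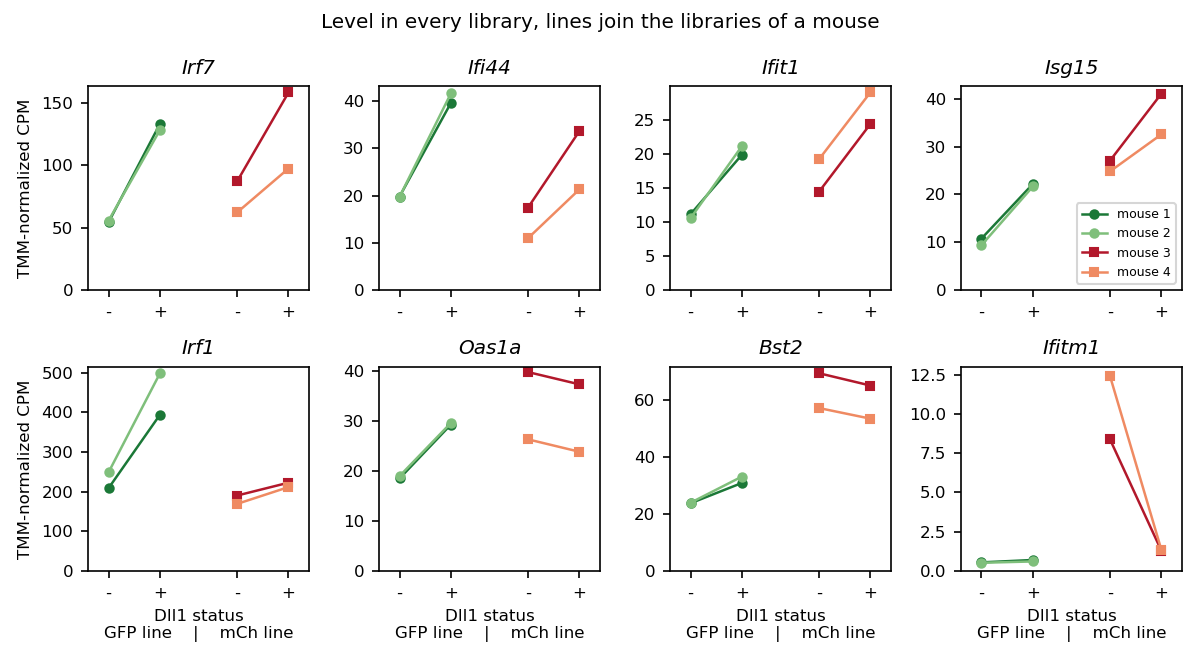
TMM-normalized CPM of 8 of the genes in every library, where a line joins the Dll1- and the Dll1+ library of 1 mouse and each axis starts at 0. Irf7, Ifi44, Ifit1, Isg15 and Irf1 climb in all 4 mice, Oas1a and Bst2 climb in mice 1 and 2, and Ifitm1 drops in mice 3 and 4.

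The membrane proteins gave the one fall in the set. Ifitm1, of the family that blocks fusion of viruses with the cell, measured 8.38 and 12.4 CPM in the Dll1- and 1.28 and 1.33 CPM in the Dll1+ libraries of the mCherry line, and 0.546 and 0.520 CPM against 0.697 and 0.604 CPM in the GFP line. The 2 Dll1- libraries of the mCherry line stood far above the other 6. Ifitm1 fell by 2.96 on the log2 scale in the mCherry line (SE 0.24, edgeR adjusted p = 0.00705), whichever mouse was left out. The fibroblast and pericyte markers (8 of 8 found) summed highest in those same libraries, at 7825 and 21876 CPM. The immune (543 and 555 CPM), endothelial (177 and 403 CPM) and red cell sums (180 and 87.4 CPM) were highest there too. The part of any of these cells in the fall was not tested.

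Ifitm3, which restricts influenza virus entry, measured 76.7 and 62.8 CPM against 131 and 136 CPM in the GFP line, where it rose by 0.95 (SE 0.18, edgeR adjusted p = 0.0423), and 207 and 273 CPM against 261 and 217 CPM in the mCherry line. Ifitm2 measured 112 and 104 CPM against 134 and 127 CPM, and 192 and 242 CPM against 192 and 207 CPM, and did not pass. Bst2, the tetherin that holds budding virus, measured 23.7 and 23.9 CPM against 30.8 and 33.1 CPM in the GFP line, where it rose by 0.42 (SE 0.08, edgeR adjusted p = 0.0299), and 69.3 and 57.1 CPM against 65.0 and 53.4 CPM in the mCherry line. For Ifitm2 55.52% of stretches of 31 bases also lie in another gene, most in Gm45717.

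Isg15, the ubiquitin-like modifier, measured 10.8 and 9.39 CPM in Dll1- against 22.2 and 21.7 CPM in Dll1+ cells of the GFP line and 27.1 and 24.8 CPM against 41.1 and 32.5 CPM in the mCherry line. It was higher in Dll1+ cells of each mouse and rose by 0.80 over 4 mice (SE 0.15, edgeR adjusted p = 0.0257). Herc6, the mouse ligase for ISG15 (0.86, SE 0.14, edgeR adjusted p = 0.0188), and the ADP-ribosyltransferase Parp14 (0.54, SE 0.11, adjusted p = 0.031) rose in the GFP line. Dtx3l, a ubiquitin ligase, and its partner Parp9, whose starts lie 681 bases apart on opposite strands, ranged from 37.2 to 67.2 CPM and from 47.7 to 65.9 CPM and passed in no Dll1 comparison.

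Of the guanylate-binding proteins, GTPases that attack membranes of pathogens, Gbp3 rose in the GFP line (0.96, SE 0.16, edgeR adjusted p = 0.0181). Gbp2 measured 31.7 and 29.4 CPM in Dll1- against 37.2 and 39.5 CPM in Dll1+ cells of the GFP line, and 35.0 and 43.6 CPM against 44.6 and 36.3 CPM in the mCherry line. Gbp7 measured 14.0 and 12.6 CPM against 16.3 and 17.5 CPM, and 8.54 and 10.7 CPM against 8.77 and 6.10 CPM. Neither passed in a Dll1 comparison, and in both genes mouse 4 was the 1 mouse with a lower Dll1+ library.

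Among the other genes Ifi44 was the steadiest. It measured 19.8 and 19.7 CPM in Dll1- against 39.6 and 41.6 CPM in Dll1+ cells of the GFP line and 17.5 and 11 CPM against 33.7 and 21.3 CPM in the mCherry line. The log2 differences within the mice were 1.0, 1.08, 0.94 and 0.95, and Ifi44 rose by 1.0 over 4 mice (SE 0.06, edgeR adjusted p = 0.00534). Xaf1, which binds the inhibitor of apoptosis XIAP (1.0, SE 0.14, edgeR adjusted p = 0.0109), and Ifi27 (0.47, SE 0.07, adjusted p = 0.0171) rose in the GFP line. Ifi35, Rtp4, Lgals3bp, a secreted glycoprotein, and Ifi30, a lysosomal thiol reductase, passed in no Dll1 comparison.

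The reporter lines were compared at a given Dll1 status. The share of the set called, 38.6% in Dll1- and 36.4% in Dll1+ cells, was near that of all tested genes, 36.6% and 30.6%, so the counts are no result about the set. Reporter allele, animals and any difference in handling cannot be told apart here, and the markers of stroma and immune cells given above were higher in the mCherry line throughout. In Dll1- cells 12 of the 44 genes were higher in the mCherry line and 5 lower, against 18.7% and 17.9% of tested genes, with a median log2 fold change of 0.28. Scaled by library totals without TMM, as an alternative chosen after seeing the data, the split was 9 higher and 7 lower. In Dll1+ cells 6 were higher and 10 lower, against 15.2% and 15.4% of tested genes, with a median of -0.13. With mouse 1 or mouse 2 left out no gene passed in edgeR, in the set or in the whole table. At an unadjusted p under 0.05 there were then 12 and 12 genes of the set in Dll1- cells, beside 28.2% and 29.6% of all genes, and 13 and 14 in Dll1+ cells, beside 25.1% and 23.4%. Without mouse 3 there were 31 calls in Dll1+ cells, beside 35.7% of all genes.

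All 4 membrane proteins were higher in the mCherry line in both kinds of cell, where 18.7% (Dll1-) and 15.2% (Dll1+) of all tested genes were higher. Their log2 fold changes in Dll1- cells were 4.28 for Ifitm1 (SE 0.31, edgeR adjusted p = 0.000937), 1.78 for Ifitm3 (SE 0.18, adjusted p = 0.00152), 1.41 for Bst2 (SE 0.14, adjusted p = 0.00156) and 1.01 for Ifitm2 (SE 0.13, adjusted p = 0.00268). In Dll1+ cells they were 1.01, 0.84, 0.89 and 0.61. There the call of Ifitm1 (edgeR adjusted p = 0.0358) was lost with the mouse as a random block and with the 4 Dll1+ libraries fitted alone. Ifitm1 had 20 and 27 counts in the Dll1+ libraries of the GFP line. Isg15 was higher too (1.36 in Dll1- and 0.75 in Dll1+ cells), as was Ifi30 (0.73 and 0.62), from 64.0 and 60.6 CPM to 112 and 94.2 CPM in Dll1- cells. The fibroblast and pericyte, immune, endothelial and red cell sums were also higher in the mCherry line in both kinds of cell. Their part in these differences was not tested.

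The sensors Ifih1 and Ddx58 and the kinase gene Eif2ak2 were lower in the mCherry line in both kinds of cell. Ifih1 differed by -0.40 in Dll1- and -0.67 in Dll1+ cells, Ddx58 by -0.58 and -0.63, and Eif2ak2 by -0.58 and -0.74. Dtx3l (-0.65) and Cmpk2 (-0.53) were lower in Dll1- cells. In Dll1+ cells Gbp7 (-1.18), Samd9l (-1.10), Irf1 (-1.04), Herc6 (-1.01), Parp14 (-0.76), Stat2 (-0.50) and Trim25 (-0.45) were lower. Of the genes higher in Dll1- cells of the mCherry line alone, Lgals3bp (1.10), Ifit3 (1.04), Oas1a (0.82), Isg20 (0.68), Ifit1 (0.63) and Ifi35 (0.60) passed.

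**Figure D5:**
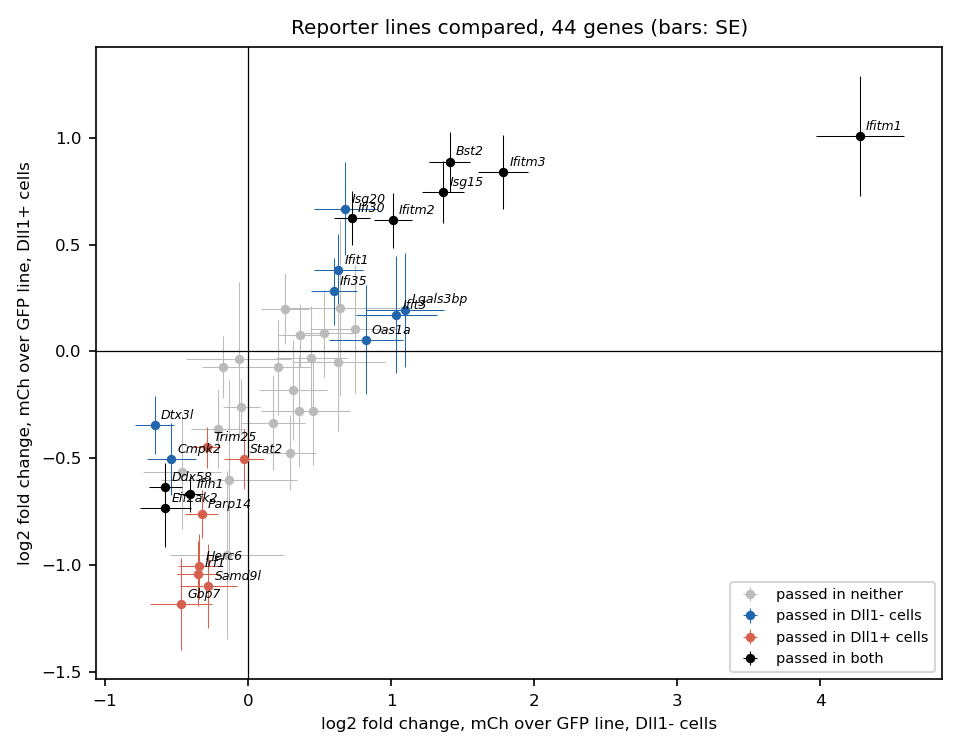
Log2 fold change of the mCherry over the GFP line in Dll1- cells (horizontal) and in Dll1+ cells (vertical) for the 44 genes, with SE bars and colors for the comparison in which a gene passed. The 4 membrane proteins and Isg15 lie at the upper right, and Ddx58, Ifih1 and Eif2ak2 at the lower left.

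The pathway around the set was read from a list of 36 further genes, of which 26 were tested and 2 (Jak2 and Tmem173) were not analysed here. Transcripts of the listed interferons were scarce. Ifnb1 had 2 to 32 counts per library, Ifna2 had 0 in all 8, which allows up to 0.024 to 0.105 CPM for counting error alone, and Ifna4, Ifnk, Ifne, Ifnl2 and Ifnl3 had at most 3 counts each. Ifng had 0 counts in the GFP line and 1 to 9 in the mCherry line. RNA of these listed ligands was thus low or at 0, with Ifnb1 at most at 0.58 CPM, in the Dll1+ library of mouse 4. Of the Ifna genes only Ifna2 and Ifna4 were on the list, and ligand protein was not measured.

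Receptor and kinase RNA was found in every library. Over 4 mice the main ones did not pass, and the log2 fold changes were -0.11 for the type I receptor chain Ifnar1 (SE 0.06, edgeR adjusted p = 0.251), -0.05 for the interferon gamma receptor chain Ifngr1 (SE 0.12, adjusted p = 0.802) and -0.18 for the kinase Jak1 (SE 0.09, adjusted p = 0.213). The genes that passed over 4 mice were 3 of 26 (11.5%), no larger a share than the 14% of all tested genes called in either direction, with Trim21, an antibody receptor and ubiquitin ligase, rising by 0.50 (SE 0.08, edgeR adjusted p = 0.0149), the type III receptor chain Ifnlr1 rising by 0.53 (SE 0.09, adjusted p = 0.0184) and Cgas, the cytosolic DNA sensor, falling by 0.98 (SE 0.18, adjusted p = 0.0241). Cgas stood at 3.55 and 3.54 CPM in Dll1- against 1.67 and 1.43 CPM in Dll1+ cells of the GFP line and at 4.20 and 3.37 CPM against 2.20 and 2.21 CPM in the mCherry line, lower in each mouse. In the GFP line Trim21 rose and Cgas fell, and in the mCherry line Ifnlr1 (0.60, SE 0.12, edgeR adjusted p = 0.0319) rose while Irf8, a factor of myeloid cells, fell by 1.22 (SE 0.23, adjusted p = 0.0268). Irf8 measured 7.18 and 9.38 CPM in Dll1- against 3.66 and 3.35 CPM in Dll1+ cells there, where the immune marker sum went from 543 and 555 CPM to 242 and 247 CPM, and the part of immune cells was not tested. None of the 26 passed in the difference between lines.

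Between the lines 5 of the 26 were higher and 6 lower in Dll1- cells of the mCherry line, and 3 were higher and 6 lower in its Dll1+ cells. These are 42.3% and 34.6% of the list in either direction, near the 36.6% and 30.6% of all tested genes. Ifnlr1 was lower in both, by -1.49 (SE 0.15, edgeR adjusted p = 0.00156) and -1.35 (SE 0.15, adjusted p = 0.00367), with 38.0 to 60.9 CPM in the GFP and 13.2 to 23.3 CPM in the mCherry line. The RNA sensor Tlr3 (-0.97 and -0.79), Trim21 (-0.52 and -0.72) and the kinases Tbk1 (-0.53 and -0.38) and Tyk2 (-0.48 and -0.39) were lower in both as well, while Irf2 (-0.41) passed in Dll1+ cells. Higher in both were Irf5 (1.91 and 1.05) and Irf8 (2.43 and 1.32). The feedback inhibitors Socs1 (2.77) and Socs3 (1.43) and the receptor chain Ifnar2 (0.32) were higher in Dll1- cells, and Ifngr2 (0.53) in Dll1+ cells.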

How the data were processed

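RNA of lineage-depleted, sorted tumor cells was sequenced from stranded libraries. Per the study's methods and its processing notes, the authors quantified reads with Salmon on GENCODE mouse transcripts (GRCm38.p6) and summarized them to genes with tximport. The deposited table holds these estimated counts, which need not be whole numbers and were rounded here. Genes were filtered with filterByExpr, scaled by TMM and tested with edgeR 4.0.16 (robust quasi-likelihood, R 4.3.3) with the mouse as a block and a Dll1+ effect for all mice or for each line, or as 4 group means between lines. P-values were adjusted by Benjamini-Hochberg over 18322 genes. Symbols came from the annotation. The members, roles, pathway and marker lists were chosen with earlier results of these data known. All 44 members are accounted for. Values in each library are given for a list of central genes and for part of the genes with the lowest p in a comparison. Oasl1, Oasl2 and Xaf1, for example, are given by fold change alone. Pathway genes are named where they passed, with Ifnar1, Ifngr1 and Jak1. Some genes of the pathway list are counted but not reported here by name.

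Both libraries of a mouse come from 1 animal by the labels, which gives the pairing. Deviations of same-mouse libraries from their group means correlated at r = -0.05 (GFP) and 0.55 (mCherry) across genes, which are not independent replicates. P-values rest on 2 mice a line. The alternatives were DESeq2 1.42.0, other filters, no block, limma 3.58.1 voom with a random block, each line alone, each mouse left out and library totals. The tests were run first on simulated data.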

Additional observations from a re-analysis of the deposited data

Results flagged for a closer look

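Ifi30, the lysosomal thiol reductase, had log2 differences between the Dll1+ and Dll1- library of -0.20, 0.01, -0.21 and -0.18 in mice 1 to 4. Mouse 2, at 0.00727, stood apart from the other 3 by Dixon's test, which flags about 1 in 20 groups by chance. The test was run on each of the 44 genes and flagged Ifi30 alone, no more than that rate gives. Ifi30 passed in no Dll1 comparison.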

How the results depend on the processing

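No gene called in the main comparisons changed direction under any alternative. With DESeq2 there were 19 calls among the 44 genes over 4 mice, beside 23.8% of all tested genes. In the difference between lines DESeq2 gave 8 calls, beside 2.95%. There edgeR gave 16 with no filter on low counts, beside 3.28%, and 1 with at least 10 counts in every library, beside 0.283%. Each mouse left out in turn gave 2 to 22 calls over 4 mice, 0 to 29 in the GFP line, 3 to 5 in the mCherry line, 0 to 11 in the difference, 0 to 25 between lines in Dll1- cells and 0 to 31 in Dll1+ cells. The calls in the GFP line and between lines were lost without mouse 1 or mouse 2, where a single GFP mouse is assumed to vary like the others. Fitted alone, the mCherry line gave 0. Of the 10 genes called over 4 mice 2 passed with each mouse left out, of the 8 in the mCherry line 3, and of the 21 in the GFP line 0. The share of all tested genes called over 4 mice thus moved as well. The cause of these shifts was not tested. Library totals in place of TMM, an alternative chosen after seeing the data, moved no count of calls by over 1.5 times.

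The mouse block was also left out, which discards the pairing. There were then 7 calls over 4 mice, beside 7.38% of all tested genes. The GFP line gave 3, beside 1.5%, and the mCherry line 1 (Ifitm1), beside 1.16%. The difference gave 0 in the set and in the whole table. With the mouse as a random block there were 13 calls between lines in Dll1- cells, beside 33.2% of all tested genes. In Dll1+ cells there were 15, beside 27.6%. Ifitm1 is limited by depth in the GFP line, with as few as 15 counts.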
